A study of Mus musculus with 12 samples.

Results

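The mouse genes Slitrk1, Slitrk2, Slitrk3, Slitrk4, Slitrk5, Lrfn2, Lrfn5, Flrt2, Flrt3 and Lrrtm4 encode cell adhesion proteins of synapses that carry leucine-rich repeats outside the cell. These 10 genes were taken by their symbols from the 23893 genes of a table of RNA-seq read counts, and all 10 were found. The table covered 12 libraries of polyA RNA from embryonic mouse cortical neuron cultures, in which topotecan, an inhibitor of DNA topoisomerase 1 (TOP1), was compared with deletion of Top1. The question put to these genes was whether trapping TOP1 with the drug and removing it changed their transcripts in the same way.

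There were 4 groups of 3 cultures each. For WT-Veh and WT-Topot, a lentivirus in which the neuronal CaMKIIα promoter drives tdTomato, a red fluorescent protein, was added on day 3 in vitro (DIV 3). Top1 cKO-Veh and Top1 cKO-Topot cultures received a virus that also carried the recombinase CRE. The study's methods give Top1 fl/fl neurons for both viruses, so the control cultures carried the floxed allele too, whereas the labels list them as C57BL6 Wild-type. Since CRE came from a neuronal promoter on a virus, cells that were not infected, or in which the promoter is silent, could keep Top1. Cultures were prepared from mid-gestation embryos. Vehicle (0.003% DMSO) or 300 nM topotecan in the same DMSO was added at DIV 15 for 3 days.

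The libraries held 1730164 to 4583777 counts, and the 10 genes had 56 to 708 counts in any library. Levels are given as CPM, the counts divided by the library size after scaling by the TMM method, and differences are log2 fold changes (log2FC) with their standard error (SE). A gene was called when edgeR's quasi-likelihood test gave an adjusted p under 0.01 over all 23893 genes. Cultures of different groups with the same replicate number deviated together, so a fit with that number as a block is given as well where it changes a call. Top1 itself was at 117 to 163 CPM in the 6 tdTomato libraries and at 27.1 to 44.0 CPM in the 6 CRE libraries. Markers of neurons, 9 genes, summed to 5577 to 7293 CPM in all 12 libraries, but single neuron markers lay on either side of WT-Veh. Rbfox3 was at 142 to 170 CPM in WT-Veh and 78.4 to 81.6 in WT-Topot, and Slc17a6 at 23.0 to 42.5 and 57.8 to 77.7 CPM. The 5 microglial, 4 endothelial and 3 proliferation markers never summed to more than 13.2 CPM, and none of them was called in any comparison. The 7 oligodendrocyte lineage markers summed to 96.2 to 293 CPM. The 6 astrocyte markers summed to 937 to 2756 CPM in WT-Veh and 314 to 663 in WT-Topot. In Top1 cKO-Veh they summed to 871 to 2999 CPM and in Top1 cKO-Topot to 309 to 1007 CPM. The 5 interneuron markers summed to 750 to 1660, 489 to 888, 1128 to 1298 and 842 to 1213 CPM in the same order of groups. No astrocyte, interneuron or neuron marker was at 0 throughout a group, and 1 oligodendrocyte marker was at 0 in every group.

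Proteins of these families sit mainly in the postsynaptic membrane and bind partners on the opposite side of the cleft, which helps synapses form and keeps excitatory and inhibitory contacts distinct. SLITRK proteins bind the presynaptic receptor tyrosine phosphatases PTPRD and PTPRS. LRFN proteins, also called SALMs, bind scaffolds of the DLG family or, in the case of LRFN5, presynaptic receptor phosphatases. FLRT proteins bind latrophilins (Lphn genes) and UNC5 receptors, and act in axon guidance and neuron migration as well as at synapses. LRRTM4 binds glypicans and neurexins and is a component of excitatory synapses.

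The 10 genes differ widely in the length of DNA they span. In the GENCODE annotation of the mouse assembly NCBIM37, which is the assembly named mm9, the 5 Slitrk genes span 4.249 to 12.11 kb. Flrt3 spans 20.56 kb and Flrt2 92.99 kb, whereas Lrfn2 spans 165.2 kb, Lrfn5 334.8 kb and Lrrtm4 791.3 kb. The coding sequence lies in 1 exon in the Slitrk and Flrt genes, in 2 in the Lrfn genes and in 3 in Lrrtm4. Exons make up 2.35% of the span of Lrfn5, 1.94% of that of Lrfn2 and 0.777% of that of Lrrtm4, against 8.3% in Flrt2, 23.7% in Flrt3 and 42.3 to 100% in the Slitrk genes. Transcription of the Lrfn and Flrt genes and of Lrrtm4 thus runs mostly through intron.

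Lrfn5, on the plus strand of chromosome 12 at 62624137 to 62958915, and Flrt3, on the minus strand of chromosome 2 at 140476650 to 140497205, are the members with the largest fall and the clearest difference between the drug and the deletion. The 250 bases before the start of each are shown from the RefSeq promoter table of GRCm38.p6, with CG dinucleotides in capitals. The Lrfn5 window is chr12:61522917-61523166 on the plus strand and the Flrt3 window is chr2:140671477-140671726 on the minus strand.
Lrfn5: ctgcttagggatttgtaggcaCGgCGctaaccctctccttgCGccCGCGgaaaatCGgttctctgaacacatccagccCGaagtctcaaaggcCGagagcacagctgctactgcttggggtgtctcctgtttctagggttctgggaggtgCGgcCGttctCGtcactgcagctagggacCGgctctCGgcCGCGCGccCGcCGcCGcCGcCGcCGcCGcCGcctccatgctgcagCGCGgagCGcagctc
Flrt3: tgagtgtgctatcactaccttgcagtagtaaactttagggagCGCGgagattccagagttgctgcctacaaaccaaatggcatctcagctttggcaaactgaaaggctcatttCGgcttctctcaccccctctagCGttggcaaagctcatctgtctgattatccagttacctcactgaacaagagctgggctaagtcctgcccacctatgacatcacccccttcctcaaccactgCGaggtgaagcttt
The Lrfn5 window held 27 CG dinucleotides and 66.4% G and C, and the Flrt3 window held 5 and 50.0%. Of the 32851 windows in the table, 8.56% held as many CG dinucleotides as Lrfn5 or more and 55.6% as many as Flrt3 or more, and the median was 6. Windows were given for 8 of the 10 members, 10 windows in all, and none for Slitrk4 and Lrfn2. The letters TGACG, the core of the cAMP response element, were searched on both strands and were found before Lrfn5 and Slitrk2 and in 17.8% of all windows. An E-box, CACGTG, was found before Flrt2 and in 6.02% of all windows, a GC box, GGGCGG, before Slitrk2 and Slitrk5 and in 32.7%, and TATAAA before Lrrtm4 and in 12.4%. These are matches of letters and were not tested for use in these cells.

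All 10 genes were expressed in untreated control neurons. To compare levels between genes, CPM was divided by the length of the exons in the GENCODE annotation. The counts were summed over RefSeq exons, so this length may differ from the one counted. The SD covers the spread between libraries and not that difference, so the order between genes is approximate. In WT-Veh the order was Slitrk1, at 35.8 ± 1.74 CPM per kb of exon (SD, n = 3), Slitrk5 at 31.3 ± 3.48 and Slitrk3 at 20.1 ± 1.23. The next were Lrfn2 at 17.9 ± 6.37, Lrfn5 at 17.7 ± 2.76, Flrt2 at 16.2 ± 5.12, Slitrk4 at 14.7 ± 4.73, Flrt3 at 13.3 ± 1.31 and Lrrtm4 at 12.6 ± 3.15 CPM per kb, and Slitrk2 was lowest at 8.91 ± 2.41. From Slitrk3 to Lrrtm4 each gene was within 1 SD of the next, so this part of the order is not resolved. Lrfn5 had rank 5 of 10 in WT-Veh and was last in the other 3 groups. It was at 4.31 ± 1.41 CPM per kb in WT-Topot, 6.03 ± 1.69 in deleted neurons with vehicle and 3.25 ± 0.652 in deleted neurons with topotecan. Flrt3 had rank 4 in WT-Topot, at 19.4 ± 2.71 CPM per kb, and rank 8 in each other group.

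**Figure D1:**
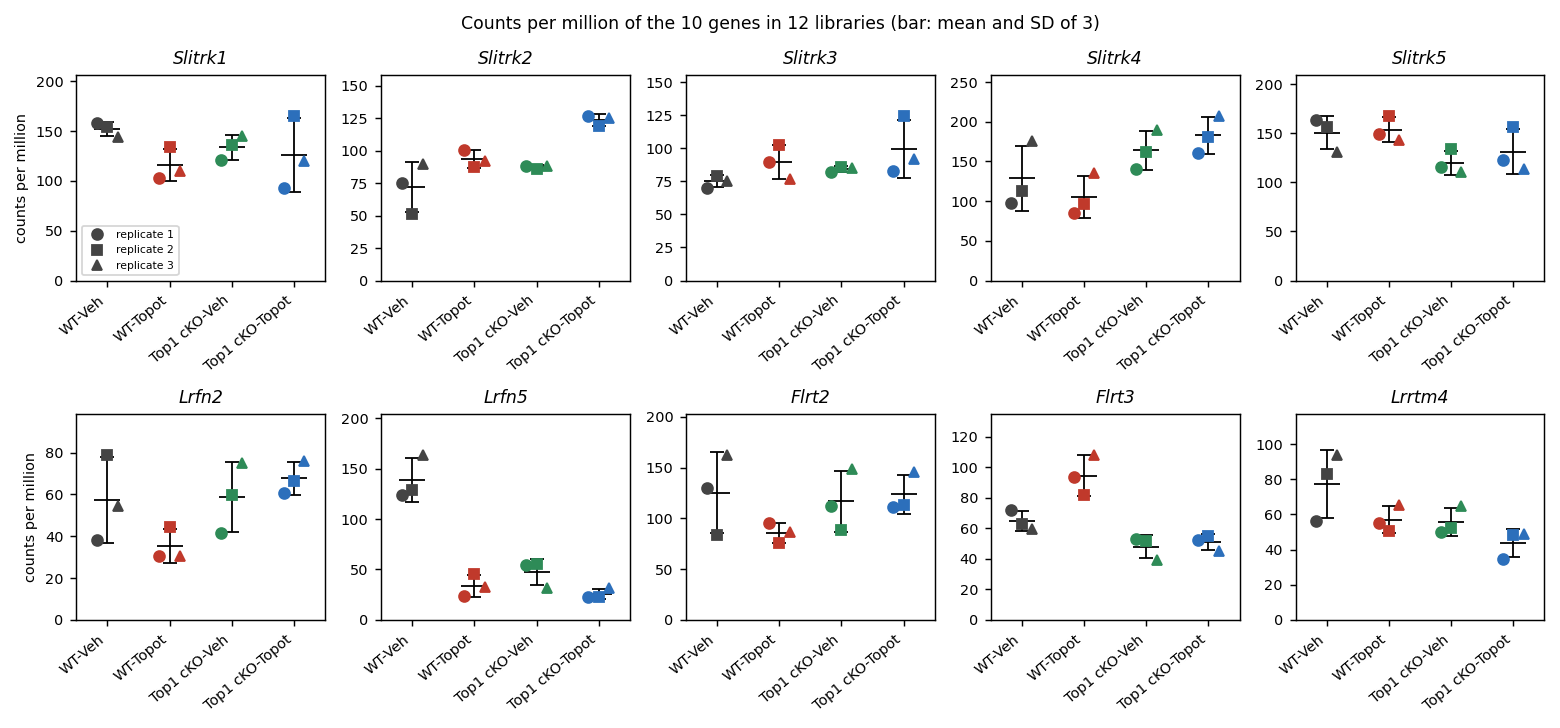
CPM (linear axes from 0) of each of the 10 genes in the 4 groups, with circles, squares and triangles for replicates 1, 2 and 3 and bars for the mean and SD of 3 libraries. The 3 WT-Veh libraries of Lrfn5 lie above all 9 others, and the 3 WT-Topot libraries of Flrt3 lie above all 9 others.

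Topotecan lowered Lrfn5 in control neurons and left most other members without a called change. Lrfn5 was at 124, 129 and 164 CPM in the 3 WT-Veh libraries and at 23.5, 45.5 and 32.5 CPM in WT-Topot. The highest treated library was far under the lowest untreated one. The level was 4.06 times lower (95% interval 2.89 to 5.70; log2FC -2.02, SE 0.234, adjusted p = 1.2e-05), and it was called in all 11 alternative fits, which used other scalings, a filter, DESeq2, the block or 1 library fewer. LRFN5 promotes excitatory and inhibitory synapses through presynaptic receptor phosphatases. Of the 10 members 1, Lrfn5, was thus called lower and 0 were called higher, where 2.04% of all 23893 genes were called lower and 0.682% higher. The median log2FC of the 10 genes was -0.33, and over 13720 genes that reached a mean level of 1 CPM it was 0.03. At an unadjusted p under 0.05, 5 of the 10 passed, 4 of them downward, and DESeq2's Wald test called 1. No share of all genes was counted at that p or for DESeq2, here or in the comparisons below. The percentages given are for edgeR calls, so these other counts have no background to be read against.

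Flrt3 went the other way. It was at 71.7, 62.7 and 59.3 CPM in WT-Veh and at 93.8, 81.6 and 107.9 CPM in WT-Topot, and the groups did not overlap. The ratio of treated to untreated libraries with the same replicate number was 1.31, 1.30 and 1.82. The log2FC was 0.55 (SE 0.196, adjusted p = 0.152) without the replicate number in the fit and 0.54 (SE 0.154, adjusted p = 0.00856) with it as a block. FLRT3 is a ligand of latrophilins and UNC5 receptors and is also known from signalling by fibroblast growth factor. Flrt2, its relative, was at 130, 83.7 and 162 CPM in WT-Veh and at 95.8, 76.1 and 86.1 CPM in WT-Topot, so the groups overlapped, and the log2FC of -0.53 (SE 0.222, adjusted p = 0.26) was not called.

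Lrfn2 was at 38.3, 78.9 and 54.7 CPM in WT-Veh and at 30.5, 44.7 and 30.4 CPM in WT-Topot. The groups overlapped, but in each of the 3 replicate numbers the treated library was the lower one, with ratios of 0.796, 0.566 and 0.556. The log2FC was -0.69 (SE 0.263, adjusted p = 0.199) without the block and -0.66 (SE 0.183, adjusted p = 0.00567) with it. LRFN2 binds postsynaptic scaffolds and takes part in the clustering of glutamate receptors. With the block 2 of the 10 genes were thus lower and 1 was higher, where the block raised the calls over all genes to 5.00% lower and 3.24% higher.

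The Slitrk genes and Lrrtm4 had no called change in WT-Topot with or without the block. Slitrk1 was at 144 to 158 CPM in WT-Veh and at 103 to 134 CPM in WT-Topot without overlap, and its log2FC was -0.39 (95% interval -0.77 to -0.013, adjusted p = 0.354). Slitrk2 and Slitrk3 had log2FC of 0.39 (95% interval -0.055 to 0.83) and 0.27 (-0.13 to 0.67). For Slitrk4 the value was -0.28 (-0.77 to 0.21), and for Slitrk5 it was 0.03 (-0.34 to 0.41), the narrowest interval of the 10 genes. SLITRK1 and SLITRK5 are best known from work on Tourette syndrome and on compulsive grooming in mice. Lrrtm4 was at 56.2, 82.8 and 93.9 CPM in WT-Veh and at 55.0, 50.7 and 65.5 CPM in WT-Topot, with a log2FC of -0.43 (SE 0.222, adjusted p = 0.445). Of the 6 astrocyte markers 2 were called lower in this comparison without and 4 with the block, and of the 5 interneuron markers 0 without and 3 with it. Of the 9 neuron markers 1 was lower and 0 were higher without the block, and 3 were lower and 3 higher with it, and of the 7 oligodendrocyte markers 0 were called without the block and 1 was lower and 1 higher with it. In cultures of several cell types fewer cells of a type and less RNA per cell cannot be told apart, and the part of these marker changes in the values of the 10 genes was not tested.

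Deletion of Top1 without drug lowered Lrfn5 as well. The Top1 cKO-Veh libraries were at 54.7, 55.4 and 32.1 CPM, all under the lowest WT-Veh library. The level was 2.89 times lower (95% interval 2.06 to 4.07; log2FC -1.53, SE 0.231, adjusted p = 0.00639; 2.4e-21 with the block). The ranges of the summed astrocyte markers of these groups overlapped almost fully, and 0 of the 6 astrocyte and 0 of the 5 interneuron markers were called here with or without the block. With the block 1 of the 9 neuron and 1 of the 7 oligodendrocyte markers were higher, where 0 were called without it, and their part was not tested. The call was lost without WT-Veh replicate 2 (adjusted p = 0.0289), without Top1 cKO-Veh replicate 2 (adjusted p = 0.0162) and after a filter on low counts (adjusted p = 0.0251), while the log2FC stayed between -1.66 and -1.33 in all 11 alternatives. Again 1 of 10 genes was lower and 0 were higher, with 0.126% of all genes lower and 0.0460% higher. With the block the member count was the same, and 2.95% of all genes were lower and 2.60% higher. WT-Veh is the control in this comparison and in the one above, so the 2 falls of Lrfn5 share their reference libraries.

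The other 9 members had log2FC between -0.47 and 0.36 after deletion, and their median with Lrfn5 was -0.15, against -0.0033 over those 13720 genes. Flrt3 was at 53.2, 51.5 and 39.1 CPM, each under the lowest WT-Veh library, with a log2FC of -0.43 (SE 0.213, adjusted p = 0.617) that was not called. Lrrtm4 was at 50.1, 52.4 and 64.6 CPM with a log2FC of -0.47 (SE 0.23, adjusted p = 0.596). Slitrk4, which was at 97.4, 113 and 176 CPM in WT-Veh, was at 141, 162 and 190 CPM in Top1 cKO-Veh, and each CRE library was above the tdTomato library of its replicate number. Its log2FC of 0.36 was not called (SE 0.224, adjusted p = 0.803; 0.0369 with the block). SLITRK4 is an X-linked member of its family, as is SLITRK2. Lrfn2 had a log2FC of 0.04 (95% interval -0.55 to 0.63), an interval that includes differences of either sign.

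Set directly against each other, the drug and the deletion were farthest apart in Flrt3. WT-Topot libraries were at 81.6 to 107.9 CPM and Top1 cKO-Veh libraries at 39.1 to 53.2 CPM, a log2FC of 0.97 (SE 0.202). The adjusted p of 0.0105 missed the threshold without the block, and with the block the log2FC was 0.95 (adjusted p = 1.26e-05). It was also called when libraries were scaled by their totals (adjusted p = 0.00532), by DESeq2 (adjusted p = 7.9e-04), and without WT-Topot replicate 2 (adjusted p = 0.00486), Top1 cKO-Veh replicate 1 (adjusted p = 0.00313) or Top1 cKO-Veh replicate 3 (adjusted p = 0.0065). Without the block edgeR called 0 of the 10 genes, with 4 at an unadjusted p under 0.05, where 1.23% of all genes were called lower with the drug and 0.293% higher. With the block Slitrk4 was lower in WT-Topot (log2FC -0.66, adjusted p = 6.1e-05), as was Lrfn2 (log2FC -0.70, adjusted p = 0.00365), which made 2 lower and 1 higher, beside 4.80% and 2.93% of all genes. Lrfn5 was not called, with a log2FC of -0.50 in both fits (95% interval -1.06 to 0.066, adjusted p = 0.535; -0.88 to -0.12, adjusted p = 0.0818 with the block). In this comparison 2 of the 6 astrocyte markers and 1 of the 5 interneuron markers were called lower without the block, and 4 and 4 with it. Of the neuron markers 2 were lower without the block, and 3 were lower and 1 higher with it, while 1 oligodendrocyte marker was lower with the block only. The part of all these markers in these values was not tested.

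Under topotecan, the genotype made a difference to Flrt3 and Lrfn2. Flrt3 fell from 81.6 to 107.9 CPM in WT-Topot to 52.2, 55.1 and 45.0 CPM in Top1 cKO-Topot, 1.86 times lower (95% interval 1.41 to 2.46; log2FC -0.90, SE 0.196, adjusted p = 0.00605). Lrfn2 rose from 30.4 to 44.7 CPM to 60.5, 66.4 and 76.1 CPM, 1.91 times higher (95% interval 1.40 to 2.59; log2FC 0.93, SE 0.215, adjusted p = 0.00931). Neither gene's libraries overlapped between the 2 groups. For 1 lower and 1 higher member, 1.03% of all genes were lower and 1.46% higher. Both were called with the block, where Slitrk4 (log2FC 0.81, adjusted p = 1.0e-06) and Flrt2 (log2FC 0.51, adjusted p = 0.00444) were higher too, so 1 member was lower and 3 were higher beside 4.08% and 4.60% of all genes. DESeq2 called Slitrk4 together with Lrfn2 and Flrt3. Of the markers, 1 of the 5 for interneurons was called higher here (3 with the block) and 0 of the 6 for astrocytes (1 with the block). Of the 9 neuron markers 1 was lower and 2 were higher without the block, and 3 were lower and 2 higher with it, and 2 of the 7 oligodendrocyte markers were higher with the block only. The part of these markers in the values above was not tested.

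These calls were close to the threshold. Flrt3 was not called after a filter on low counts (adjusted p = 0.0116), without WT-Topot replicate 3 (adjusted p = 0.0301), without Top1 cKO-Topot replicate 1 (adjusted p = 0.0106) or without Top1 cKO-Topot replicate 2 (adjusted p = 0.0163). Lrfn2 was not called with library totals (adjusted p = 0.012), with that filter (adjusted p = 0.0141), without WT-Topot replicate 1 (adjusted p = 0.0324) or 3 (adjusted p = 0.0348), or without Top1 cKO-Topot replicate 2 (adjusted p = 0.0313) or 3 (adjusted p = 0.0106). Slitrk4 was called without WT-Topot replicate 3 (adjusted p = 8.5e-04) and without Top1 cKO-Topot replicate 1 (adjusted p = 0.00473). Over all alternatives the log2FC of Flrt3 stayed between -0.99 and -0.78 and that of Lrfn2 between 0.84 and 1.15.

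In neurons that had both the deletion and the drug, Lrfn5 was low as well. Top1 cKO-Topot libraries were at 22.3, 22.9 and 31.5 CPM, 5.34 times under WT-Veh (95% interval 3.86 to 7.40; log2FC -2.42, SE 0.226, adjusted p = 1.3e-06). They overlapped those of WT-Topot, and the log2FC between these groups was -0.42 (95% interval -0.96 to 0.12, adjusted p = 0.58; 0.245 with the block), so which of them was lower is not resolved. Lrfn5 was 1 of 10 members lower against WT-Veh and 0 were higher, and 1.21% of all genes were lower and 0.473% higher. With the block Lrrtm4 was lower as well, at 34.7, 48.2 and 49.0 CPM against 56.2 to 93.9 CPM in WT-Veh (log2FC -0.78, SE 0.167, adjusted p = 8.0e-04; 0.0729 without the block). LRRTM4 is a receptor for heparan sulphate proteoglycans. In this comparison 0 of the 6 astrocyte markers were called without and 4 were lower with the block. Of the neuron markers 1 was higher without and 2 with the block, and 2 oligodendrocyte markers were higher with the block only, and their part was not tested.

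Slitrk2 and Slitrk4, both X-linked, had their highest mean levels in Top1 cKO-Topot, as did Slitrk3 and Lrfn2, which are not X-linked. Slitrk2 was at 74.9, 51.3 and 89.8 CPM in WT-Veh and at 127, 119 and 125 CPM in Top1 cKO-Topot without overlap, with ratios by replicate number of 1.70, 2.32 and 1.40. Its log2FC was 0.81 without the block (SE 0.212, adjusted p = 0.0361) and 0.84 with it (adjusted p = 1.24e-04). Slitrk4 was at 161, 181 and 208 CPM, and the lowest of these libraries lay under the highest WT-Veh library. Its log2FC was 0.54 without the block (SE 0.216, adjusted p = 0.233) and 0.57 with it (adjusted p = 0.00341). SLITRK2 promotes excitatory synapses through presynaptic receptor phosphatases. Without WT-Veh replicate 3, which had the highest Slitrk2 and Slitrk4 of its group, both were called also in the fit without the block, with log2FC of 0.99 and 0.82 (adjusted p = 0.00144 and 0.00759). Each was called in only 2 of the 11 alternatives, this one and the block. The adjusted p rose to 0.159 for Slitrk2 without WT-Veh replicate 2 and to 0.714 for Slitrk4 without WT-Veh replicate 1. With the block 2 members were thus lower and 2 higher, beside 4.02% and 3.34% of all genes.

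Adding topotecan to deleted neurons gave smaller differences. Against Top1 cKO-Veh, edgeR called 0 of the 10 genes without the block, with 2 at an unadjusted p under 0.05, and DESeq2 called 0, where 0.00837% of all genes were called lower and 0 higher. Lrfn5 was lower in Top1 cKO-Topot in each of the 3 replicate numbers, with ratios of 0.407, 0.413 and 0.982. The log2FC of -0.89 (SE 0.259, adjusted p = 0.478) became -0.90 (SE 0.177, adjusted p = 7.3e-05) with the block. Slitrk2 rose from 86.1 to 88.7 CPM to 119 to 127 CPM, ratios of 1.44, 1.38 and 1.41, with log2FC of 0.51 in both fits (adjusted p = 0.652 without and 0.00205 with the block). With the block 1 member was lower and 1 higher, beside 1.74% and 0.858% of all genes, and 4 of the 6 astrocyte markers were lower too (0 without the block). With the block 1 neuron marker was lower, 1 was higher and 2 oligodendrocyte markers were higher, where 0 were called without it, and the part of these markers was not tested. For Flrt3 the log2FC was 0.09 (95% interval -0.36 to 0.54), and for Lrfn2 it was 0.22 (-0.26 to 0.70).

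The interaction compares the effect of topotecan in deleted neurons with that in control neurons, over all 12 libraries. For Lrfn5 topotecan moved the level by a log2FC of -2.02 in control neurons and of -0.89 in deleted neurons, a difference of 1.12 (95% interval 0.37 to 1.86, SE 0.357, adjusted p = 0.189). With the block the difference was 1.10 (SE 0.276, adjusted p = 0.00656). Lrfn2 had a difference of 0.90 (SE 0.367, adjusted p = 0.431; 0.0149 with the block), Flrt2 of 0.63 (SE 0.319, adjusted p = 0.665; 0.0467 with the block) and Flrt3 of -0.46 (SE 0.268, adjusted p = 0.771; 0.302 with the block). Without the block edgeR called 0 of 10, with 2 at an unadjusted p under 0.05, and DESeq2 called 0. Of all genes 0.0377% were called lower and 0.398% higher. With the block Lrfn5 was 1 of 10 called higher and 0 were lower, beside 2.44% and 1.53% of all genes. Lrfn5 spans 334.8 kb. Of the 2017 genes over 100 kb that reached a mean level of 1 CPM, 17.7% were higher with the block. Their median difference was 0.33. Of the 11315 genes of 100 kb or less at that level, 1.94% were higher. The other 6 members had differences between -0.018 and 0.44 without the block, none of them called.

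**Figure D2:**
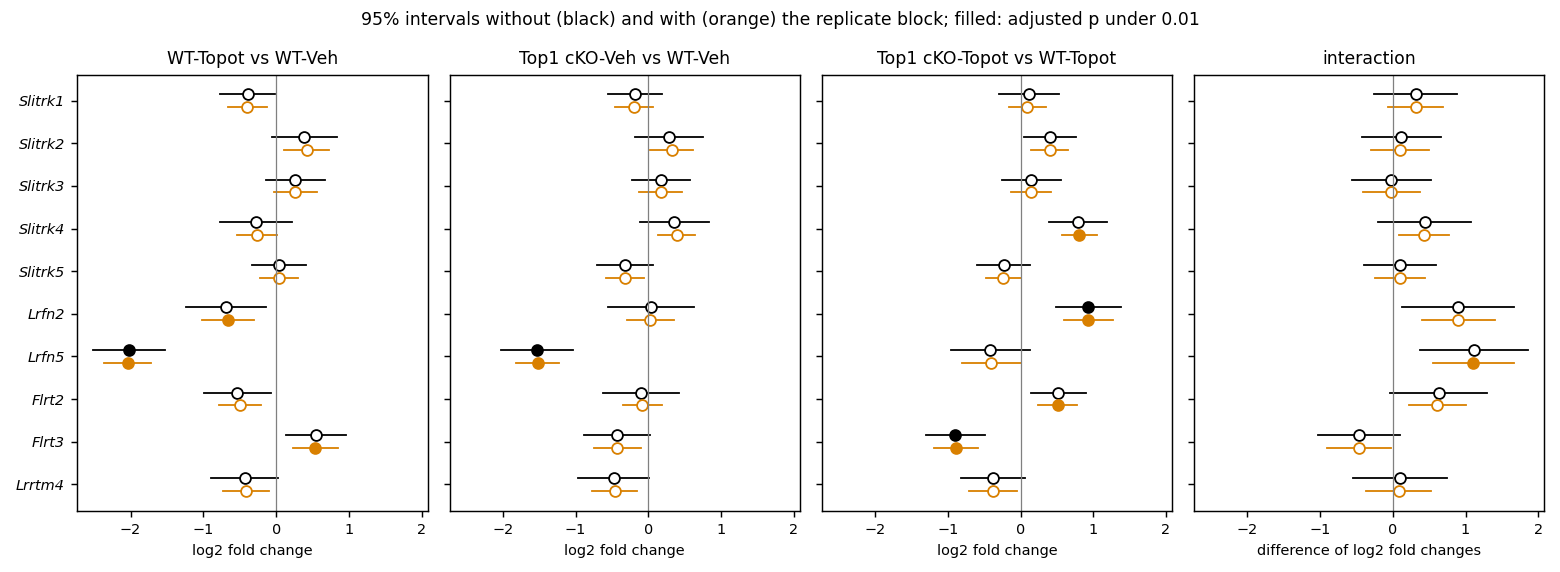
Log2 fold changes of the 10 genes with 95% intervals for 3 comparisons and the interaction, which is the difference of 2 log2 fold changes. Black points are fits without and orange points fits with the replicate number as a block, and filled points have an adjusted p under 0.01. Lrfn5 lies at -2.02 under topotecan and -1.53 after deletion. Flrt3 lies on opposite sides of 0 in these 2 comparisons, as do Slitrk4, Slitrk5 and Lrfn2, and none of these values was called without the block.

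Slitrk1, Slitrk3 and Slitrk5 were not called in any of the 7 comparisons, with or without the block. Over the 12 libraries Slitrk1 ranged from 92.4 to 165 CPM, Slitrk3 from 70.2 to 125 CPM and Slitrk5 from 110 to 168 CPM. Slitrk5 was at 149, 168 and 143 CPM in WT-Topot and at 116, 134 and 110 CPM in Top1 cKO-Veh without overlap, a log2FC of 0.35 (SE 0.168, adjusted p = 0.418; 0.0336 with the block). SLITRK3 is the member of its family known for inhibitory synapses, and Slitrk3 was at 82.1 to 86.1 CPM in Top1 cKO-Veh, just above the 70.2 to 79.3 CPM of WT-Veh, with a log2FC of 0.17 (95% interval -0.23 to 0.57).

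By length, the members fell on both sides of the 100 kb the study uses for long genes. Among the genes that reached a mean level of 1 CPM, topotecan lowered 17.8% of the 2017 genes over 100 kb, with a median log2FC of -0.42, and 1.05% of the 11315 genes of 100 kb or less, with a median of 0.08. With the block these shares were 33.8% and 4.34%. Of the 3 members over 100 kb, Lrfn5 (334.8 kb) was at -2.02, Lrfn2 (165.2 kb) at -0.69 and Lrrtm4 (791.3 kb) at -0.43. The longest member had the smallest estimated fall of the 3, near the median of its class. Its 95% interval (-0.90 to 0.031) overlapped that of Lrfn2 (-1.24 to -0.14), so the order of these 2 is not resolved. Deletion of Top1 alone lowered 0.545% of the genes over 100 kb and 0.168% of the others without the block, and 11.8% and 3.94% with it, and the median log2FC of the long genes was -0.051. Lrfn5 was at -1.53 here, Lrrtm4 at -0.47 and Lrfn2 at 0.04. The 7 members of 100 kb or less had log2FC from -0.53 to 0.55 with topotecan and from -0.43 to 0.36 after deletion.

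**Figure D3:**
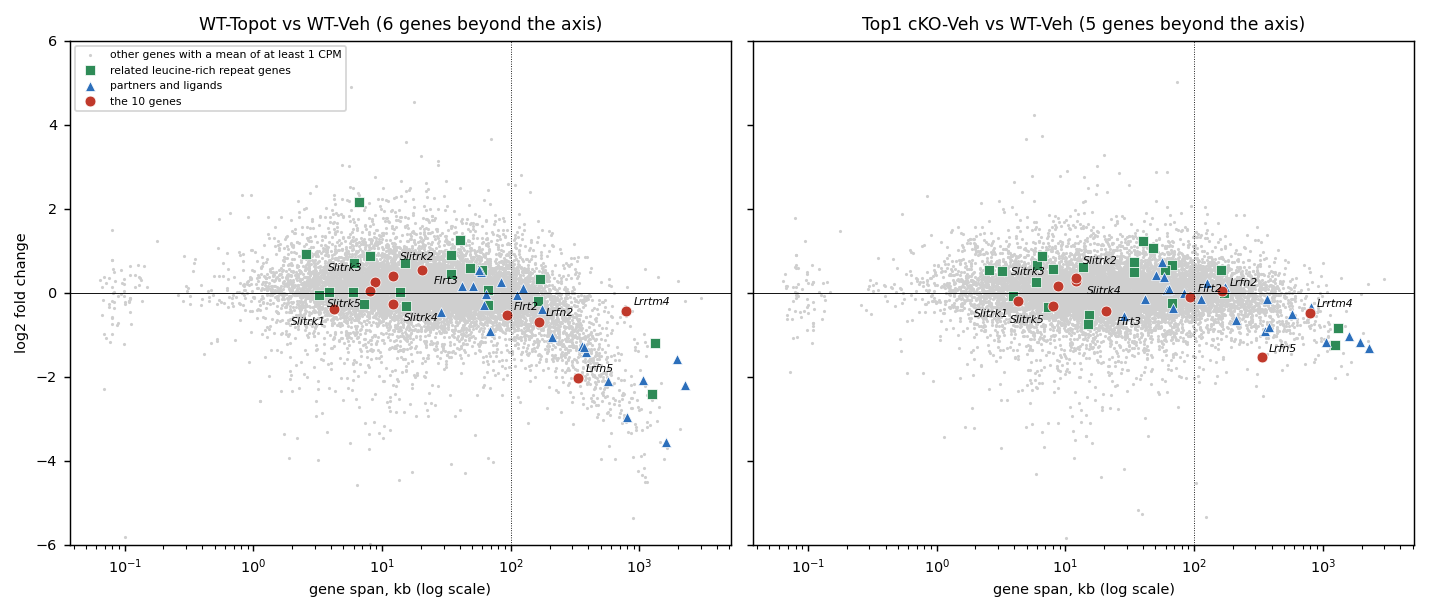
Log2 fold change against gene span in kb (log axis, dotted line at 100 kb) for WT-Topot and Top1 cKO-Veh against WT-Veh, over the genes of known span that reached a mean level of 1 CPM. Red circles are the 10 genes, green squares 22 related leucine-rich repeat genes and blue triangles 22 partners and ligands. Lrfn5 lies among the falling long genes on the left, whereas Lrrtm4, the longest member at 791.3 kb, lies at -0.43.

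The wider family was read from a list of 22 related neuronal leucine-rich repeat genes, all of them measured. In WT-Topot 2 of them were lower and 1 was higher, beside 2.04% and 0.682% of all 23893 genes, and the median log2FC was 0.20. The 2 that fell are long genes. Lrrc4c, which encodes the netrin-G ligand NGL-1 and spans 1313.5 kb, was at 257 to 276 CPM in WT-Veh and at 103 to 130 CPM in WT-Topot (log2FC -1.21, adjusted p = 1.6e-04). Lingo2, spanning 1245 kb, fell by 2.42 on the log2 scale (adjusted p = 1.0e-04). Lrrn1, a neuronal leucine-rich repeat gene of 40.4 kb, rose from 48.0 to 51.3 CPM to 107 to 131 CPM (log2FC 1.26, adjusted p = 2.4e-04). Lrrn1 was also the 1 gene of the list called after deletion, where its log2FC was 1.23 (adjusted p = 0.00839) and the median of the list was 0.53, beside 0.126% of all genes lower and 0.0460% higher. With the block 2 were lower and 8 higher with topotecan, beside 5.00% and 3.24% of all genes, and 4 were lower and 10 higher after deletion, beside 2.95% and 2.60%. In the interaction 0 were called without the block, and 6 were lower and 1 was higher with it, beside 1.53% and 2.44% of all genes. The relatives closest to the members, Slitrk6, Lrfn1, Lrfn3, Lrfn4, Flrt1 and Lrrtm1 to Lrrtm3, had no call with topotecan or after deletion without the block. Among them Lrrtm1, singled out after its values were seen, was higher with topotecan (log2FC 0.70, adjusted p = 0.0308; 2.0e-06 with the block) and lower after deletion (log2FC -0.74, adjusted p = 0.187; 1.4e-06 with the block). Flrt3 had the same pair of signs, at 0.55 and -0.43, as did Slitrk5, at 0.03 and -0.33, and none of these values was called without the block.

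Among the partners of the 10 proteins more genes were called. Of 22 genes for receptors, ligands and scaffolds, 9 were lower in WT-Topot and 0 were higher, with a median log2FC of -0.68, beside 2.04% and 0.682% of all genes. All 9 are among the 13 partners that span over 100 kb. Ptprd, the phosphatase that binds SLITRK proteins, was at 274 to 291 CPM in WT-Veh and at 44.6 to 83.0 CPM in WT-Topot (log2FC -2.19, adjusted p = 1.9e-06). Lphn3, the latrophilin bound by FLRT3, fell by 2.95 on the log2 scale (adjusted p = 1.6e-06) at a span of 805 kb, close to that of Lrrtm4. Unc5d, a receptor for FLRT2, fell by 2.11 (adjusted p = 2.9e-05). The neurexin gene Nrxn3 fell by 3.55 (adjusted p = 3.5e-08), the scaffold genes Dlg2 and Dlg1 by 1.58 (adjusted p = 1.6e-05) and 1.06 (adjusted p = 0.0012), and Robo1 by 1.42 (adjusted p = 0.0012). With the block 12 partners were lower and 1 was higher, beside 5.00% and 3.24% of all genes.

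After deletion 2 of the 22 partners were lower and 0 higher without the block, beside 0.126% and 0.0460% of all genes, and the median log2FC was -0.25. With the block 8 were lower and 2 higher, beside 2.95% and 2.60%. The 2 called without the block were Ptprd, at 83.2 to 132 CPM (log2FC -1.31, adjusted p = 0.00639), and Dlg2 (log2FC -1.19, adjusted p = 0.00694). Lphn3 was at 60.2 to 72.4 CPM with a log2FC of -0.34 that was not called (adjusted p = 0.773). In WT-Topot Lphn3 was at 7.04 to 16.0 CPM, against 66.8 to 98.6 CPM in WT-Veh, while its ligand gene Flrt3 was above its WT-Veh range in each library. That rise of Flrt3 was called only with the block, and the other latrophilin genes of the list had overlapping libraries in these groups. In Top1 cKO-Topot Lphn3 was also under its WT-Veh range, at no more than 29.2 CPM. There Flrt3 was at 45.0 to 55.1 CPM, under its WT-Veh range of 59.3 to 71.7 CPM, a fall that was not called. The opposite directions of Lphn3 and Flrt3 in WT-Topot were thus not seen in Top1 cKO-Topot. A link between the levels of Lphn3 and Flrt3 was not tested. In the interaction 0 partners were lower and 1, Nrxn3, was higher without the block, beside 0.0377% and 0.398% of all genes, and 0 were lower and 8 higher with it, beside 1.53% and 2.44%.

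**Figure D4:**
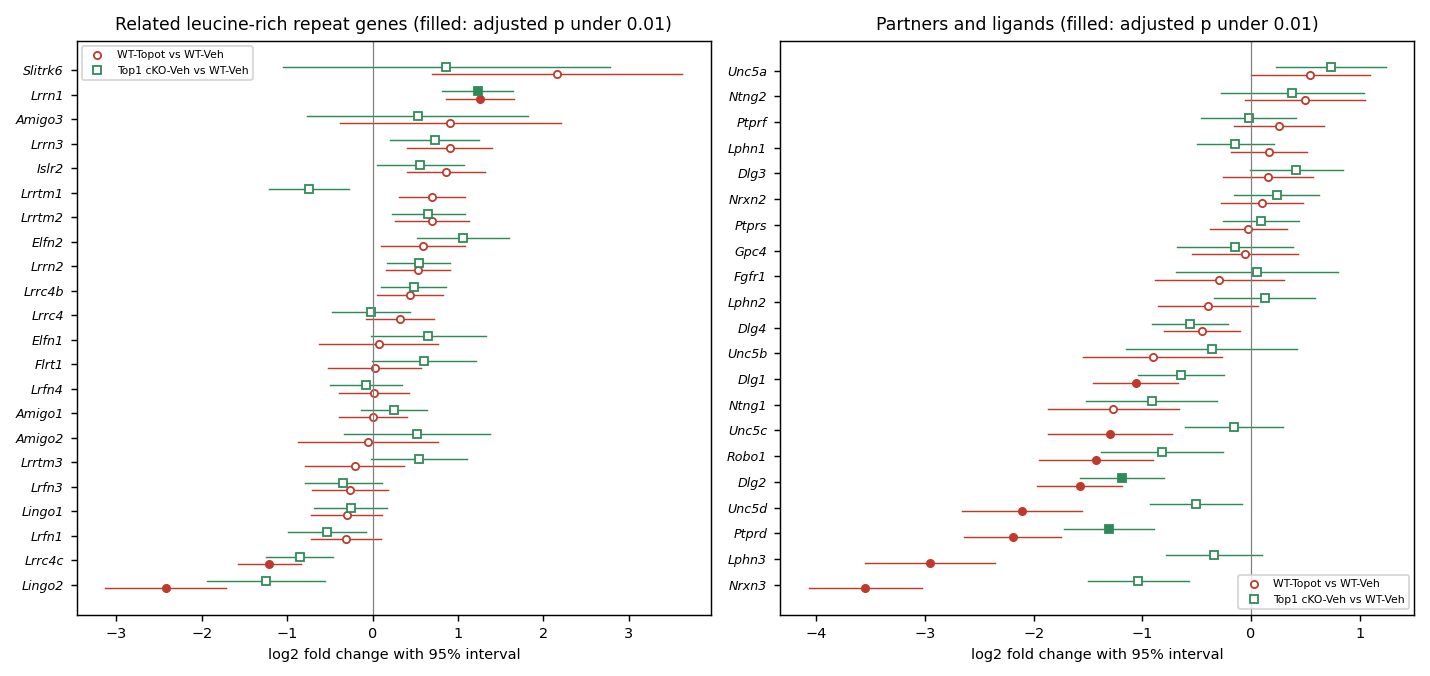
Log2 fold changes with 95% intervals of 22 related leucine-rich repeat genes and of the partners and ligands shown here, for WT-Topot (red circles) and Top1 cKO-Veh (green squares) against WT-Veh, without the block. Filled points have an adjusted p under 0.01: with topotecan 2 related genes, Lingo2 and Lrrc4c, fell and 1, Lrrn1, rose.

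The pattern of each member over the 12 libraries was set against 9497 genes whose mean reached 10 CPM, by the root mean square difference of log2(CPM + 1) after centring each gene on its mean. This is a description over libraries that share scaling and replicate numbers. For Lrfn5 the nearest genes were Fam19a2, Hdac9 and Slc9a9, at differences of 0.245 to 0.284, and these genes span 477, 481 and 561 kb. For Flrt3 they were Lix1, Ppapdc1b and Nynrin at 0.179 to 0.182, for Slitrk5 Aldh3a2, Eif4b and Eef2 at 0.0955 to 0.11, and for Lrrtm4 Esco1, Exoc5 and Atp6v1h at 0.169 to 0.177. The genes nearest to Lrrtm4, the longest member, span only 43.8 to 79.4 kb. Those nearest to Flrt3 span 4.83 to 56.7 kb and those nearest to Slitrk5 5.88 to 44.0 kb. Among the members themselves, Slitrk1 and Slitrk5 were the closest pair at 0.26, and Slitrk2 and Lrfn5 the farthest at 1.23. Lrfn2 and Lrfn5, of the same family, differed by 1.04, and Flrt2 and Flrt3 by 0.671.

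Annotated genes overlap 2 of the members. Flrt3 lies inside Macrod2, a gene of 1998 kb on the opposite strand, and their exons do not overlap. Macrod2 was at 13.2, 12.3 and 25.3 CPM in WT-Veh and at 21.4, 16.3 and 22.3 in WT-Topot. It was at 16.8, 16.0 and 16.0 CPM in Top1 cKO-Veh and at 11.6, 11.3 and 5.68 CPM in Top1 cKO-Topot, so it was under Flrt3 in every library. In Top1 cKO-Topot against WT-Topot, where Flrt3 was lower, Macrod2 had a log2FC of -1.06 (adjusted p = 0.0578; 0.00277 with the block), and its part in the Flrt3 counts was not tested. One end of Lrrtm4 overlaps exons of Gm4409 on the opposite strand, a gene that is not a row of the count table. Whether the counting used strand is not stated, so reads of Lrrtm4 and Gm4409 cannot be told apart there.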

How the data were processed

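Cortical neuron cultures were sequenced as polyA RNA, and per the labels the 12 libraries form 4 groups of 3. The authors cleaned the paired reads with TagDust and mapped them with TopHat to mm9. Reads from rRNA genes were dropped, and the deposited counts are raw sums over RefSeq exons for each gene symbol. The counting program, strand setting and versions are not given in the sources used here. Reads of overlapping or near-identical genes may be shared between symbols.

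From the deposited counts, TMM-scaled CPM and log2 fold changes were computed with edgeR 4.0.16 in R 4.3.3. Each pairwise comparison was fitted on its 6 libraries with the quasi-likelihood test, without a filter, with Benjamini-Hochberg adjustment over 23893 genes and an FDR of 0.01. The interaction was fitted on 12 libraries. P-values rest on the spread between these cultures, which the quasi-likelihood test moderates with the spread shared over genes. In a pairwise fit with the block, 6 libraries say little about the spread of a single gene. All p-values and intervals there, not only the very small ones, lean mostly on the shared spread and do not measure the gene's own. At this depth 3 counts correspond to 0.654 to 1.73 CPM.

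Labels number the replicates 1 to 3 in each group. Deviations from the group means, over 13720 genes whose mean reached 1 CPM, correlated at 0.261 to 0.485 between the 18 pairs with the same number and at -0.384 to -0.0494 between different numbers. Centring on group means forces negative values between different numbers once same-numbered libraries correlate positively, so the negative values are no separate evidence. From the positive values the numbers were taken to pair the cultures. Values of the fit with the number as a block are given where they change a call. What a number stands for is not given in the sources used here. The dispersion index between libraries of a group was 6.05 to 10.1, so no library appeared to repeat another of its group. Libraries of different groups were not compared in this way.

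Gene spans and exon lengths were taken from GENCODE vM1 on NCBIM37, in which 21013 symbols matched directly, 1046 by a synonym and 1834 not. Promoter windows came from RefSeq. The 10 genes, the lists and the tests were chosen with earlier results of these data known. All 10 genes were named, and of the lists the genes called in WT-Topot, at most 8 by adjusted p, or in Top1 cKO-Veh. A gene that this rule would name is counted in its list but not reported here. Nearest genes are given for 1 member of each family. Alternatives were DESeq2's size factors, library totals, edgeR's filterByExpr, the DESeq2 1.42.0 Wald test, the block and leaving out each library. The fit without the block was first run on simulated counts with large planted changes, for WT-Topot against WT-Veh and for the interaction. No replicate effect was simulated, and the fit with the block was not checked in this way.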

Additional observations from a re-analysis of the deposited data

Results flagged for a closer look

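The effect of topotecan on Lrfn5 differed between the genotypes when the replicate number was fitted as a block, by a log2 difference of 1.10 (SE 0.276, adjusted p = 0.00656, edgeR), and it was smaller in deleted neurons. Without the block the difference was 1.12 (adjusted p = 0.189), and over the 17 alternatives it lay between 0.91 and 1.40 with adjusted p from 0.00656 to 0.432. It was called in only 1 of these 17, the block. Within the replicate numbers the treated Lrfn5 level was 0.19, 0.353 and 0.199 times the untreated one in control neurons and 0.407, 0.413 and 0.982 times in deleted neurons. Of the partners, Nrxn3 had an interaction of 2.34 (SE 0.31, adjusted p = 5.5e-04) without the block. It was at 187 to 318 CPM in WT-Veh and 15.4 to 24.0 in WT-Topot, and at 97.7 to 140 CPM in Top1 cKO-Veh and 47.8 to 55.1 in Top1 cKO-Topot. Lrfn5 and Nrxn3 each span over 100 kb. Of the genes of that length that reached a mean level of 1 CPM, 17.7% had a higher interaction with the block and 3.32% without. For genes of 100 kb or less these shares were 1.94% and 0.239%.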

How the results depend on the processing

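Among the values of single members under an alternative, 762 kept their direction and side of the threshold, 23 passed the threshold only in the alternative, 13 only without it, and 32 changed direction, and the cause was not tested. The replicate block made 13 of the 23 changes and ended no call, and its counts of members called were 3 in WT-Topot against WT-Veh, 4 in Top1 cKO-Topot against WT-Veh, 2 in Top1 cKO-Topot against Top1 cKO-Veh, 3 in WT-Topot against Top1 cKO-Veh, 4 in Top1 cKO-Topot against WT-Topot and 1 in the interaction. With filterByExpr, which tests fewer genes, the counts were 0 for deletion alone and 0 in Top1 cKO-Topot against WT-Topot. With library totals they were 1 in WT-Topot against Top1 cKO-Veh and 1 for Top1 cKO-Topot against WT-Topot, and the DESeq2 Wald test gave 1 in the first of these. Leaving out 1 library gave 0 to 1 in Top1 cKO-Veh against WT-Veh, 1 to 3 in Top1 cKO-Topot against WT-Veh, 0 to 1 in WT-Topot against Top1 cKO-Veh and 0 to 2 for Top1 cKO-Topot against WT-Topot.

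Directions changed only for values that were not called in any fit. Flrt2 in Top1 cKO-Topot against WT-Veh, at 0.0062, was -0.011 with DESeq2's size factors, -0.0027 with library totals, -0.027 with filterByExpr and -0.011 with the Wald test. Slitrk3 in the interaction, at -0.018, was 0.014 with those size factors, 0.0050 with filterByExpr and 0.012 with the Wald test. With 1 library left out, log2 values ranged in WT-Topot against WT-Veh from -0.51 to 0.010 for Slitrk4 and -0.049 to 0.086 for Slitrk5. In Top1 cKO-Veh against WT-Veh they ranged from -0.20 to 0.34 for Lrfn2 and -0.33 to 0.12 for Flrt2, and in Top1 cKO-Topot against WT-Veh from -0.22 to 0.23 for Flrt2. In Top1 cKO-Topot against Top1 cKO-Veh the ranges were -0.077 to 0.31 for Flrt2, -0.030 to 0.17 for Flrt3, -0.32 to 0.095 for Slitrk1 and -0.0075 to 0.23 for Slitrk5. They were -0.053 to 0.14 for Lrrtm4 in WT-Topot against Top1 cKO-Veh, and -0.14 to 0.30 for Slitrk1 and -0.050 to 0.27 for Slitrk3 in Top1 cKO-Topot against WT-Topot. In the interaction they were -0.060 to 0.31 for Slitrk2, -0.21 to 0.10 for Slitrk3, -0.055 to 0.30 for Lrrtm4 and -0.054 to 0.19 for Slitrk5.

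Library totals moved the share of lower among all called genes from 80.8 to 68.3% in WT-Topot against Top1 cKO-Veh and from 41.3 to 52.0% for Top1 cKO-Topot against WT-Topot. With 3 cultures a group, the 95% intervals of single members were wide, and a change within them could not be detected.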
